A study of Mus musculus with 27 samples.

Results

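The heat shock proteins and the DnaJ cochaperones of mouse retinal cells were taken as all genes whose symbol in the probe table starts with Hspa, Hspb, Hspd, Hspe, Hsph, Hsp90 or Dnaj. With 1 probe set per gene, the one with the highest mean over all arrays, 71 of 19301 genes met this rule, 27 heat shock genes and 44 DnaJ genes. Of these, 64 were above the filter for dim genes (2.83 on the log2 scale in at least 3 arrays) and were tested among 12441 genes, 25 heat shock genes and 39 DnaJ genes. The 7 untested members were Dnajb7, Dnajb13, Dnajc5g, Dnajc22, Dnajc28, Hspa1l and Hspb7, whose highest group mean was 2.82. The prefix also took in genes that are no chaperones themselves: Hspbp1 and Hspbap1 encode proteins that bind heat shock proteins, and Hspb11 encodes IFT25, a subunit of intraflagellar transport. Probe sets with several symbols were left out, among them 1 shared by Hspa1a and Hspa1b, and Hsp90ab1 and Hspa1b were not analysed here.

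Each of the 27 arrays held RNA of 200 cells sorted by fluorescence from papain-dissociated adult mouse retina, in 9 groups of 3. Pure cone photoreceptors came from the line Tg(Chrnb4-EGFP)1Gsat, in which GFP follows Chrnb4. Pure starburst amacrine cells came from the Cre line 129S6-Chat_tm1(cre)Lowl/J crossed to Rosa26-LSL-RFP, in which Cre made under Chat turns on RFP. Arc amacrine cells came from Tg(Arc-EGFP)194Gsat/Mmcd and served as a control between batches. Mixtures of starburst and cone cells were sorted at 150:50, 100:100 and 50:150, which with both pure groups form a titration, and at 125:75, 43:157 and 17:183. The labels give all groups a background that mixes the FVB/N-Swiss Webster hybrid with C57BL/6J. Founders from the repository carried a recessive mutation that makes photoreceptors degenerate, and F2 animals of a backcross were used. For the titration, retinas of the cone line (2) and the starburst line (6) were pooled, and this was repeated so that the 3 replicate numbers stand for different mice. Cell type and mouse line cannot be told apart in any comparison. The labels name no heat or other stress treatment, and give the same dissociation and sort for every group.

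Heat shock proteins keep other proteins folded. The HSP70 family (Hspa) binds exposed stretches of client proteins in a cycle driven by ATP, and J-domain proteins (Dnaj) bring clients to it and stimulate its ATPase. Small heat shock proteins (Hspb) hold unfolded proteins without ATP, HSP90 matures kinases and receptors, and HSP60 with HSP10 (Hspd1, Hspe1) folds proteins in mitochondria. Heat shock factor HSF1 raises the inducible members after stress through repeats of GAA and its complement, and the unfolded protein response raises those of the endoplasmic reticulum. Photoreceptors make and traffic large amounts of membrane protein, and several chaperone genes are linked to retinal degeneration.

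Promoter sequences were printed for members on which the results turn, to show where such repeats lie. Of the 71 members, 58 matched by symbol to the RefSeq promoter table (GRCm38.p6), and the 250 bases before each start were searched on both strands. The pair GAANNTTC or TTCNNGAA, each of which reads the same on the other strand, was found in 13 of 74 member promoters (17.6%) from 12 genes, beside 12.8% of 32851 promoters of the same length. An overlapping triple, in which GAA, TTC and GAA or TTC, GAA and TTC follow each other 2 bases apart, was in 2 member promoters (2.70%), those of Hspe1 and Hspd1, beside 0.466% of all. A match describes letters and is neither a binding site nor a cause. Hspb6 has 2 promoters among those searched and Dnaja1 has 3, and in each gene only the promoter printed below holds the pair. In the lines that follow, capitals mark each pair or, in Hspe1, a stretch of 3 overlapping pairs that holds the triple. Hspa1a (chr17:34972238-34972275, minus strand), Hspb1 (chr5:135887787-135887844, plus strand), Hspb6 (chr7:30553166-30553203, plus strand) and Dnaja1 (chr4:40722329-40722366, plus strand) are shown because they were called below, and Hspe1 (chr1:55088044-55088091, plus strand) because it carries the triple.
Hspa1a: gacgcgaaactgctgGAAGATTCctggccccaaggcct
Hspb1: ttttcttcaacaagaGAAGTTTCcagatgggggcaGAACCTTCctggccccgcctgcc
Hspb6: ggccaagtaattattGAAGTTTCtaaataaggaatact
Dnaja1: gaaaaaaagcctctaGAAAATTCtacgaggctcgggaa
Hspe1: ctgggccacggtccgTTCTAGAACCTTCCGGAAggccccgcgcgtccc
The members that carry the pair did not share a direction: of those printed, Hspa1a and Hspb6 were called higher in cones than in starburst cells, Hspb1 was called lower, and Dnaja1 was called higher in Arc cells than in cones.

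Markers of the labelled cell types were read first. The mean log2 level of 10 cone marker genes lay between 7.61 and 9.04 on pure cone arrays and between 3.13 and 4.26 on pure starburst arrays, and that of 10 starburst markers between 3.13 and 3.50 and between 6.73 and 6.96. Rod markers (8 of 10 measured) averaged 6.63 to 7.87 on pure cone, 5.70 to 6.24 on pure starburst and 4.78 to 5.37 on Arc arrays, so RNA of rod genes was present in every pure group. In 5 groups that hold cones the third array stood apart. Its cone marker mean lay below that of the first and second arrays by 1.42 in pure cones, 1.59 at 50:150, 2.50 at 43:157, 2.07 at 125:75 and 1.63 at 17:183, while its rod marker mean was higher by 0.15 to 1.23. On the third starburst array the cone marker mean, low on all 3, was 3.13 against 3.63 and 4.26. In such bulk samples fewer cells of a type and less RNA per cell cannot be told apart. Of 12441 genes, 0 varied over replicate numbers by limma at an adjusted p under 0.05 in the titration, and 780 did at an unadjusted p under 0.05.

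Across the 9 groups the spread differed widely between members. The range of group means had a median of 0.80 on the log2 scale, was under 1 in 42 of the 64 tested members and over 2 in only Hspb6 (4.10) and Dnajb3 (3.88). The same ranges were not taken over all tested genes. By limma's moderated F test 19 of 64 members (29.7%) varied over the groups at an adjusted p under 0.05, beside 17.5% of all tested genes. This count was 4, 5 and 11 when replicate number 1, 2 or 3 was left out of every group. Of the 11, Dnaja4, Hspa4l and Hspb1 were not among the 19. Each of these fits had fewer arrays, and the share of all genes that varied in it is not given here. Of the 64, 39 were above the filter on all 27 arrays. Between pure groups, a member was called at a limma adjusted p under 0.05 over all tested genes whose log2 difference was 1 or more either way. In all, 10 members were called in at least 1 of the 3 comparisons of pure groups, 5 of them in 2 comparisons, and 54 in none. The matching counts over all tested genes were not taken, and the shares of all genes called in each comparison are given below. These comparisons share arrays, so their values are set side by side and not counted as separate evidence. The error given with each difference is its standard error (SE), taken from a single fit of every group (n = 3 for each mean).

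**Figure D1:**
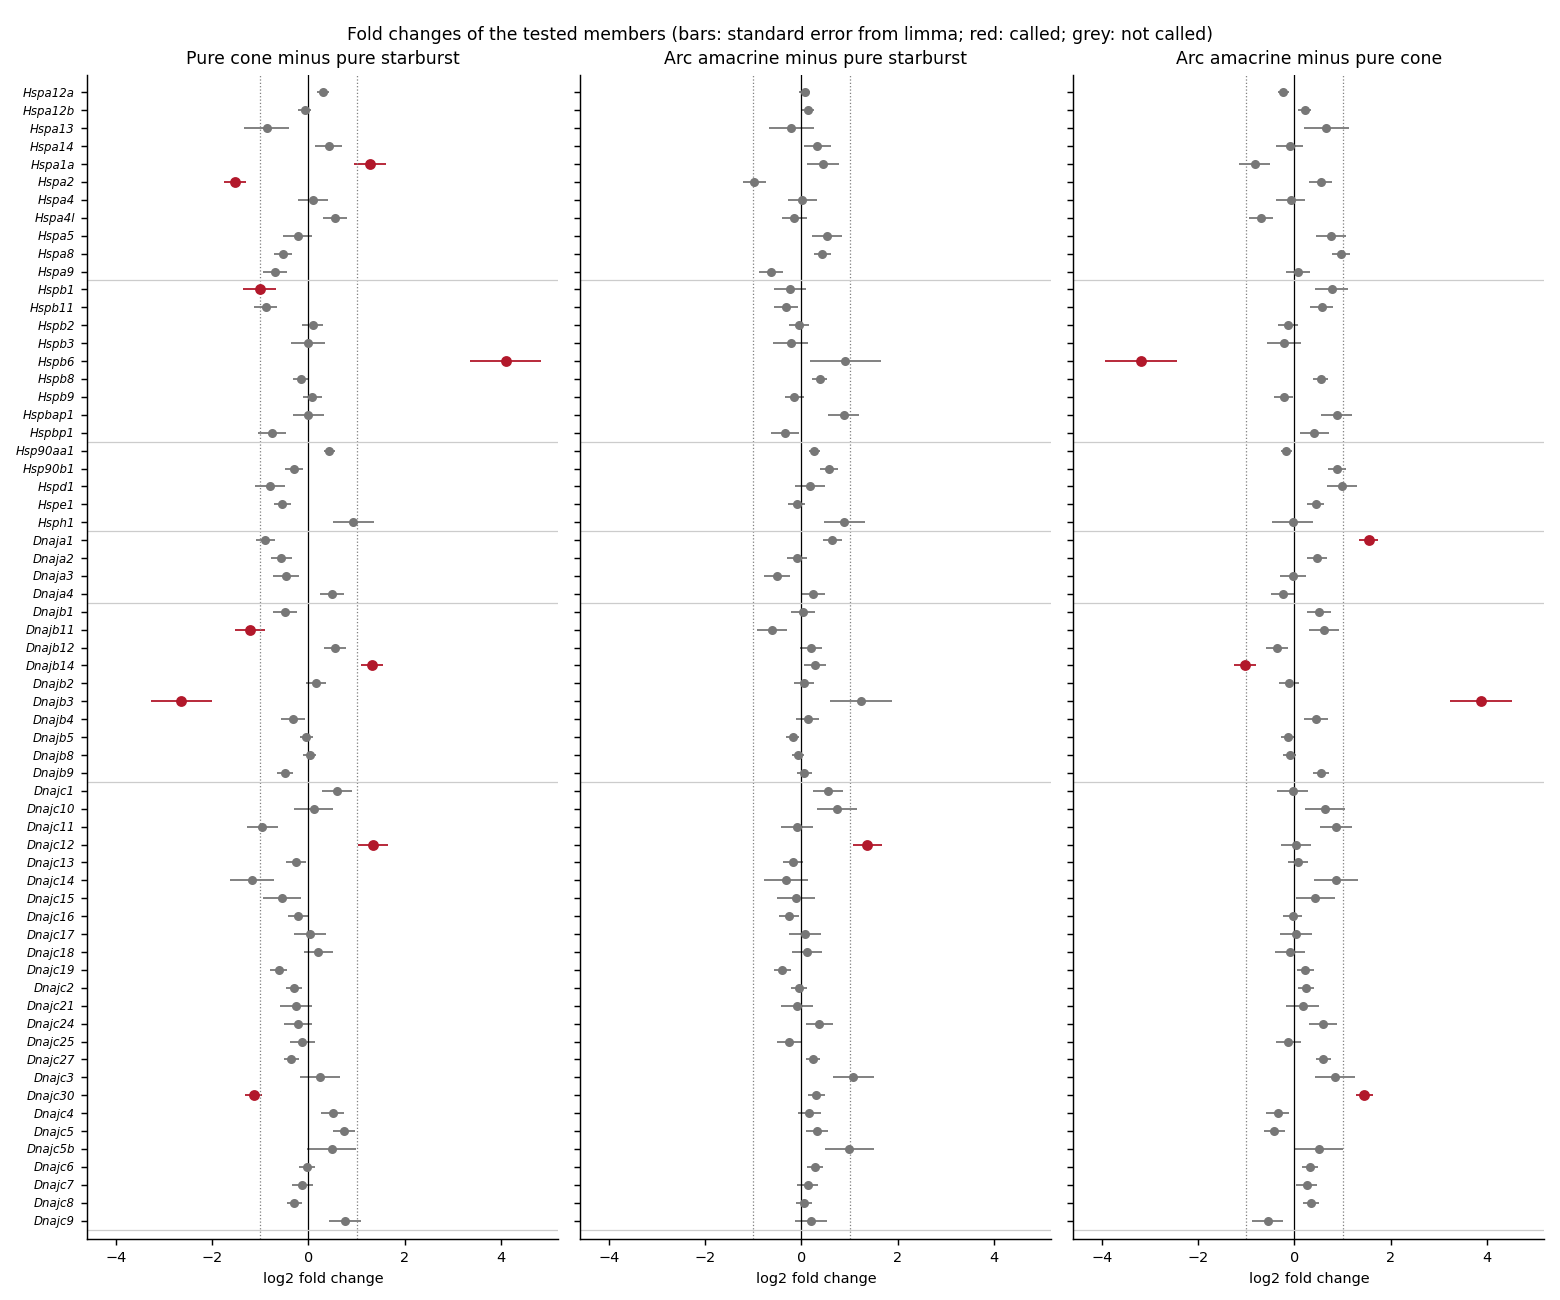
Log2 fold changes (x axis) of the 64 tested members (y axis, by family from Hspa at the top to Dnajc at the bottom) between pure groups, with standard errors from limma over 3 arrays per group; red points were called, grey points were not, and dotted lines mark a log2 fold of 1. Hspb6 lies farthest to the right in the first panel (4.10) and Dnajb3 farthest to the right in the third (3.88), and 1 point, Dnajc12, is red in the panel of Arc cells against starburst cells.

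In pure cones against pure starburst cells, 9 of 64 members were called (14.1%), beside 8.42% of all tested genes. The 4 higher in cones were Hspb6, Dnajc12, Dnajb14 and Hspa1a, beside 2.64% of all genes called higher, and the 5 lower were Dnajb3, Hspa2, Dnajb11, Dnajc30 and Hspb1, beside 5.79%. The median log2 difference was -0.15 over the members and -0.04 over all tested genes. The median absolute difference was 0.48 over the members and 0.27 over all tested genes. Groups did not overlap for 24 members (37.5%), beside 28.9% of all tested genes. Another 7 members had an adjusted p under 0.05 with a smaller fold. In Arc cells against starburst cells, 1 of 64 was called (1.56%), beside 3.55% of all genes (2.16% higher and 1.39% lower), with medians of 0.09 and 0.03 and median absolute differences of 0.25 and 0.20, and 19 members (29.7%) beside 25% of all genes did not overlap. This count was 2 without the first Arc array or without the third starburst array. In Arc cells against cones, 5 of 64 were called (7.81%), beside 10.3% of all genes. The 3 higher (Dnajb3, Dnaja1 and Dnajc30) stand beside 7.83% of all genes and the 2 lower (Hspb6 and Dnajb14) beside 2.51%, with medians of 0.23 and 0.07 and median absolute differences of 0.43 and 0.28. Here 26 members (40.6%) beside 34.2% of all genes did not overlap, and the count of calls was 8 without the first or without the second cone array. Shares of all genes called in the fits without an array are not given here.

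Of the small heat shock proteins, Hspb6 (HSP20, best known from muscle) had the largest difference of all members. Its log2 level was 2.67, 3.40 and 3.19 on the starburst arrays and 7.53, 7.88 and 6.13 on the cone arrays, and 3.95, 3.74 and 4.31 on the Arc arrays. Every cone array lay above every array of the other pure groups, and the third cone array was the lowest of the 3. The difference from starburst cells was 4.10 ± 0.74 (SE, limma adjusted p = 4.8e-04) and that of Arc cells from cones was -3.19 ± 0.74 (adjusted p = 0.0038). Arc cells differed from starburst cells by 0.91 ± 0.74, which was not called (adjusted p = 0.65). Without the third cone array these differences of Hspb6 were 4.62 and -3.71, both called.

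On the third arrays Hspb6 and the cone markers were low together in the 5 groups named above, but not in every group. In the mixtures Hspb6 was 5.89, 5.80 and 5.69 at 150:50 and 6.73, 6.64 and 6.42 at 100:100, with the 3 arrays close together. It was 5.36, 5.42 and 3.33 at 125:75, 6.75, 7.17 and 4.74 at 50:150, 7.59, 7.28 and 4.21 at 43:157, and 7.88, 7.30 and 5.90 at 17:183. In each of these last 4 groups the third array was the low one, as in the pure cones. Hspb6 on the third array lay below the mean of the first and second by 2.06 at 125:75, 2.23 at 50:150, 3.23 at 43:157, 1.69 at 17:183 and 1.58 in pure cones. In 3 groups the third array went opposite ways for the cone marker mean and Hspb6: -0.82 and 0.15 in pure starburst cells, -0.34 and 0.46 in Arc cells, and 0.13 and -0.27 at 100:100. At 150:50 both were slightly low (-0.22 and -0.15). The part of the marker levels in the Hspb6 differences was not tested. Over the mixtures alone its slope on cone share was 2.16 ± 1.02 (limma adjusted p = 0.22), not called, and without replicate number 3 it was 3.10 (adjusted p = 0.0015).

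**Figure D2:**
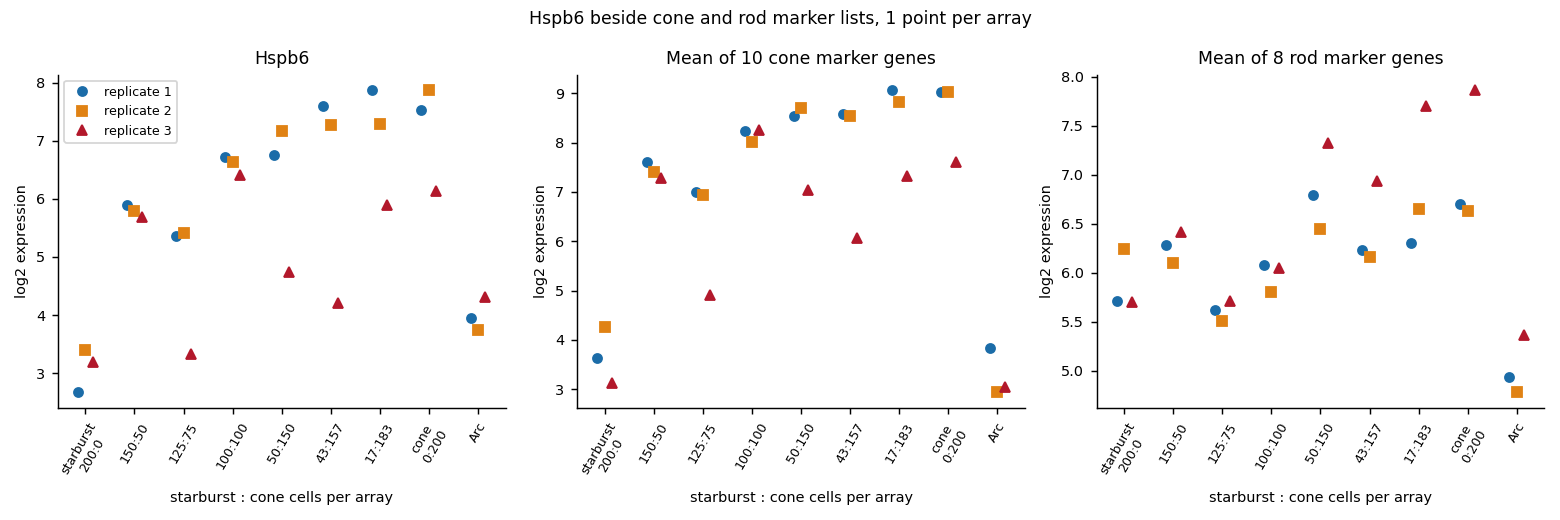
Log2 expression (y axis) of Hspb6, of the mean of 10 cone markers and of the mean of 8 rod markers on each array, by group (x axis, starburst to cone cells); circles, squares and triangles are replicate numbers 1, 2 and 3. The red triangles of Hspb6 and of the cone markers drop at 125:75, 50:150, 43:157, 17:183 and pure cone, and those of the rod markers lie 0.15 to 1.23 above the mean of the others there.

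Hspb1 (HSP27), the stress-inducible small heat shock protein, was 4.73, 5.25 and 5.49 on the starburst arrays, 3.57, 3.88 and 4.97 on the cone arrays and 4.66, 5.28 and 4.80 on the Arc arrays. The third cone array lay above the lowest starburst array, so the groups overlapped. The difference of -1.02 ± 0.34 between cones and starburst cells was called at an adjusted p of 0.047. The call was lost without the first or second cone array (adjusted p = 0.208 and 0.149) and without the second or the third starburst array (0.12 and 0.166). It was also lost after another quantile normalization (0.178), after centring each array (0.0586), with no filter on dim genes (0.0641) and in a fit of only the 6 arrays (0.17). The difference of Arc cells from cones, 0.77 ± 0.34 (adjusted p = 0.12), was not called, but was without the third cone array (1.19, adjusted p = 0.016). Hspb1 can be made by glia. The 10 Müller glia and astrocyte markers averaged 3.98 to 4.23 on starburst and 3.73 to 4.12 on cone arrays, and their part in this difference was not tested. The remaining small heat shock proteins, among them Hspb2, Hspb3, Hspb8 and Hspb9, were not called in any comparison.

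Hspb11, the subunit of intraflagellar transport, was 7.72, 7.86 and 8.12 on starburst arrays, 6.80, 6.92 and 7.30 on cone arrays and 7.51, 7.54 and 7.67 on Arc arrays. Each cone array lay below each starburst array. The difference was -0.89 ± 0.24 (limma adjusted p = 0.016), under the fold set for a call, and without the third cone array it was called (-1.04).

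Among the HSP70 genes, Hspa1a and Hspa2 were called, in opposite directions. Hspa1a, the strictly stress-inducible HSP70, was 5.30, 5.49 and 6.56 on starburst arrays, 7.25, 6.79 and 7.15 on cone arrays and 6.85, 6.09 and 5.77 on Arc arrays. All cone arrays lay above all starburst arrays, and the highest Arc array lay above the lowest cone array. Cones were higher than starburst cells by 1.28 ± 0.33 (limma adjusted p = 0.0097), and the call was lost without the first or second starburst array (adjusted p = 0.0694 and 0.0524). A fit of only the 6 arrays gave an adjusted p of 0.0691. Arc cells differed from cones by -0.83 ± 0.33 (adjusted p = 0.085), which was called without the first Arc array (-1.14).

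The Hspa1a means did not follow the cone share step by step. It was 7.03, 6.77 and 6.95 at 17:183, near the pure cones, and 5.76, 5.53 and 5.05 at 100:100, all below the pure starburst mean of 5.78 ± 0.68 (SD, n = 3). Its slope over the mixtures was 1.14 (adjusted p = 0.14), not called. A further probe set is shared by Hspa1a and its near copy Hspa1b, whose 250 upstream bases are identical at 247 positions (98.8%). That probe set read 4.9995, 6.81 and 6.34 on starburst arrays and 7.05, 6.41 and 5.75 on cone arrays, and these overlapped. Signal of near-identical copies can be split between probe sets, so which copy the Hspa1a difference measures is uncertain.

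Hspa2, an HSP70 best known from the testis, had the largest difference of the HSP70 genes between cones and starburst cells. It was 3.80, 4.19 and 3.52 on starburst arrays, 2.56, 1.89 and 2.49 on cone arrays and 3.00, 2.77 and 2.80 on Arc arrays. Starburst arrays lay above all others of the pure groups, and the cone mean of 2.31 was under the filter for dim genes, so the fold depends on the background there. Cones differed from starburst cells by -1.53 ± 0.24 (limma adjusted p = 8.3e-05). Arc cells differed from starburst cells by -0.98 ± 0.24 (adjusted p = 0.012), just under the fold for a call, and were called lower without the first Arc array (-1.05) or the third starburst array (-1.14).

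Hspa8 encodes the constitutive HSC70. It was 9.89, 9.85 and 10.05 on starburst arrays, 9.57, 9.75 and 8.86 on cone arrays and 10.26, 10.41 and 10.43 on Arc arrays. The lowest Arc array (10.26) lay above all 24 arrays of the other groups (highest 10.07). How many of all tested genes have Arc arrays above all others was not counted, for Hspa8 or for Dnajb3, Dnaja1 and Hsp90b1 below. Arc cells differed from starburst cells by 0.43 ± 0.18 (limma adjusted p = 0.22), which was not called. The difference of Arc cells from cones was 0.97 ± 0.18 (limma adjusted p = 5.7e-04), short of the fold for a call. It was 1.02, 1.06 and 1.15, and called, without the first Arc, the first cone or the second cone array. Hspa9, the mitochondrial HSP70, did not pass in any comparison (adjusted p = 0.067 for cones against starburst cells, difference -0.70 ± 0.25). Hspa4, Hspa4l, Hspa12a, Hspa12b, Hspa13 and Hspa14 were not called either.

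Of the HSP90, chaperonin and HSP110 genes, 0 of 5 were called between pure groups, beside 8.42%, 3.55% and 10.3% of all tested genes in the 3 comparisons (limma; 4, 3 and 3 of the 5 had an unadjusted p under 0.05). Hsp90aa1, the inducible cytosolic HSP90, was 10.39, 10.30 and 10.09 on starburst and 10.79, 10.65 and 10.63 on cone arrays. Cone arrays lay above starburst arrays, by 0.43 ± 0.11 (limma adjusted p = 0.013). Hspe1, the HSP10 lid of the mitochondrial chaperonin, was 9.51, 9.36 and 9.84 on starburst and 9.10, 9.02 and 8.95 on cone arrays, a difference of -0.54 ± 0.18 (adjusted p = 0.042). Its partner Hspd1 (HSP60) differed by -0.80 ± 0.31 (adjusted p = 0.094) between these groups and by 0.98 ± 0.31 (adjusted p = 0.031) between Arc cells and cones. The second was called without the first Arc (1.16), the first cone (1.17) or the second cone array (1.11), and the first without the third starburst array (-1.13). Hspe1 and Hspd1 lie head to head and share the promoter triple printed above. Hsph1, the HSP110 that exchanges nucleotide on HSP70, was 4.04, 4.73 and 3.76 on starburst and 5.51, 5.46 and 4.36 on cone arrays, and was not called (0.93 ± 0.43, adjusted p = 0.17).

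**Figure D3:**
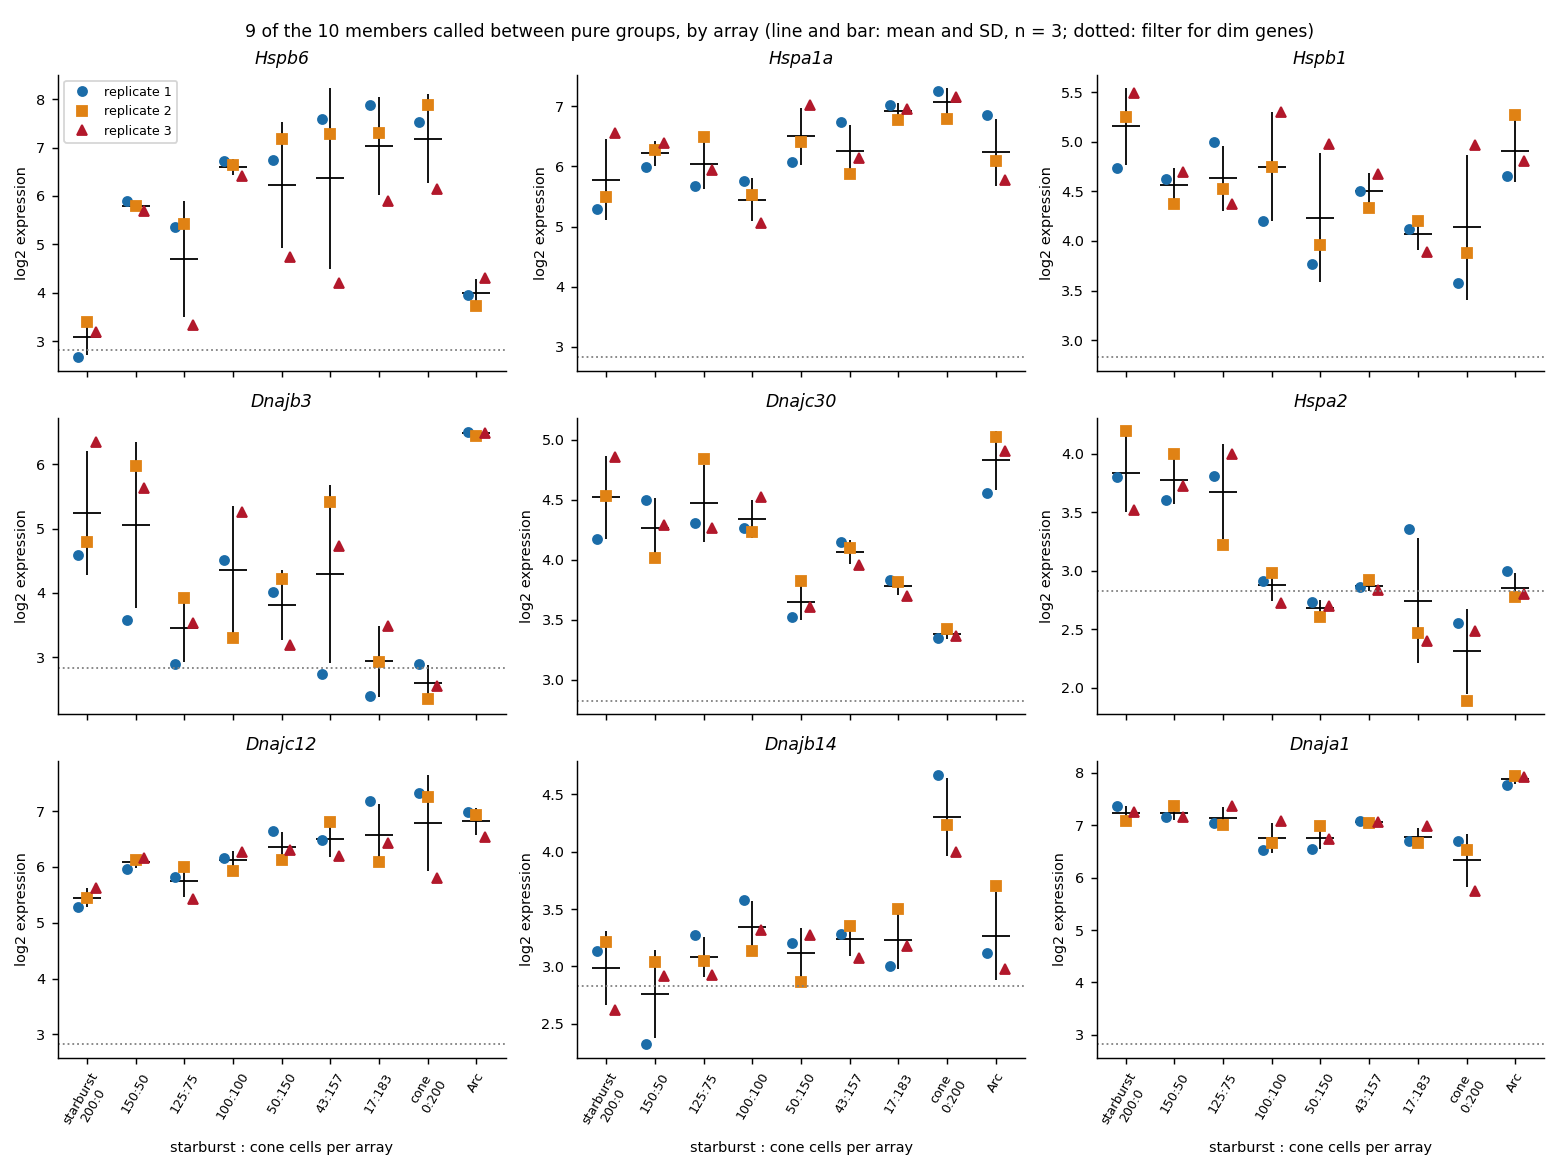
Log2 expression (y axis) on each array of 9 of the 10 members called between pure groups, by group (x axis, starburst to cone cells, then Arc); symbols are replicate numbers, the line and bar are the mean and SD of 3 arrays, and the dotted line is the filter at 2.83. Hspb6 goes from a starburst mean of 3.09 to a cone mean of 7.18, Dnajb3 is highest in Arc cells (6.48), and Dnajb14 has its highest mean, 4.30, in pure cones.

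Among the DnaJ genes of type A and B, Dnajb3 had the widest differences. This J protein is best known from the testis. It was 4.59, 4.79 and 6.35 on starburst arrays, 2.90, 2.35 and 2.56 on cone arrays, and 6.51, 6.45 and 6.49 on Arc arrays, which lay close together. No array of any other group reached the lowest Arc array (highest 6.35). The cone mean of 2.60 was under the filter for dim genes. The difference of cones from starburst cells was -2.64 ± 0.64 (limma adjusted p = 0.0066), and it was no longer called without the third starburst array (adjusted p = 0.0512). Arc cells were higher than cones by 3.88 ± 0.64 (adjusted p = 1.4e-04), and not distinguishable from starburst cells at this spread (1.24 ± 0.64, adjusted p = 0.36).

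Dnaja1, the main type A partner of HSC70 in the cytosol, was 7.36, 7.07 and 7.26 on starburst arrays, 6.70, 6.53 and 5.75 on cone arrays and 7.77, 7.93 and 7.91 on Arc arrays. The Arc arrays lay above all 24 others (highest 7.37), and the cone arrays below both other pure groups. Arc cells were higher than cones by 1.54 ± 0.19 (limma adjusted p = 5.2e-06). The difference of cones from starburst cells was -0.90 ± 0.19 (adjusted p = 0.0026), under the fold for a call (-1.08, and called, without the first cone array), and that of Arc cells from starburst cells was 0.64 ± 0.19 (adjusted p = 0.055). Dnajb1, the inducible type B partner, was not called (-0.48 ± 0.25 for cones against starburst cells, adjusted p = 0.23).

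Dnajb14, a J protein of the endoplasmic reticulum membrane, was 3.13, 3.21 and 2.62 on starburst arrays, 4.67, 4.23 and 4.001 on cone arrays and 3.12, 3.70 and 2.98 on Arc arrays. Pure cones lay above all arrays of both other pure groups. Their difference from starburst cells was 1.32 ± 0.23 (limma adjusted p = 3.1e-04) and that of Arc cells from cones was -1.04 ± 0.23 (adjusted p = 0.0024). The second call was lost, by its fold, without the first Arc (-0.96), the third Arc (-0.89) or the first cone array (-0.85). At 17:183, with cones as 91.5% of the cells, Dnajb14 read only 3.00, 3.50 and 3.18, all below the lowest pure cone array.

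Of the 12 tested members of the endoplasmic reticulum, Dnajb14 and Dnajb11 (16.7%) were called between cones and starburst cells, beside 8.42% of all tested genes. Dnajb11, a luminal partner of BiP, was 5.76, 6.24 and 5.75 on starburst arrays, 5.31, 4.49 and 4.30 on cone arrays and 5.36, 5.54 and 5.04 on Arc arrays. Cone arrays lay below starburst arrays and the difference was -1.22 ± 0.31 (limma adjusted p = 0.0093). Without the third cone array the adjusted p was 0.0552, and without the second starburst array 0.0546. Hspa5 (BiP) was 7.64, 7.34 and 7.68 on starburst, 7.27, 7.96 and 6.76 on cone and 8.19, 7.99 and 8.07 on Arc arrays, and Hsp90b1 (GRP94) was 7.52, 7.79 and 7.48, 7.52, 7.35 and 6.999, and 8.26, 8.22 and 8.04. Arc arrays of Hsp90b1 lay above all 24 others (highest 8.01). Its difference of Arc cells from starburst cells, 0.58 ± 0.19 (limma adjusted p = 0.075), was not called. Hsp90b1 was higher in Arc cells than in cones by 0.89 ± 0.19 (adjusted p = 0.0015), under the fold for a call, and Hspa5 by 0.75 ± 0.31 (adjusted p = 0.097). Without the first cone array Hsp90b1 was called (1.00), and without the second Hspa5 was (1.07).

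The endoplasmic reticulum stress element, CCAAT and CCACG with 9 bases between them on either strand, stands in the promoters of Hspa5, Hsp90b1 and Dnajc3, 3 of 74 member promoters (4.05%) beside 0.113% of all. Dnajc3 (P58IPK), a luminal cochaperone of BiP, was 4.45, 4.19 and 3.57 on Arc arrays, with 5 other arrays above the lowest of these, and was not called. The windows lie at chr2:34772010-34772058 (plus strand), chr10:86705518-86705671 (minus strand, with 2 matches) and chr14:118937812-118937860 (plus strand). They are shown because these 3 genes are the members with that element, which is marked by capitals.
Hspa5: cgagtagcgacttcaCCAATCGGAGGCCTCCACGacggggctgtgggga
Hsp90b1: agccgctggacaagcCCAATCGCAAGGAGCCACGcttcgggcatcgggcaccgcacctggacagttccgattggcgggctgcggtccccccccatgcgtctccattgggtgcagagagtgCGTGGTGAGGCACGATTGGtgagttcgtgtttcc
Dnajc3: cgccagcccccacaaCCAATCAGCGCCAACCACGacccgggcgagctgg

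In the Dnajc family 25 of 28 members were tested, and Dnajc12 and Dnajc30 were called between cones and starburst cells, 8% beside 8.42% of all tested genes. Dnajc12, a partner of HSC70 for the aromatic amino acid hydroxylases, was 5.28, 5.44 and 5.62 on starburst arrays, 7.32, 7.25 and 5.80 on cone arrays and 6.99, 6.93 and 6.54 on Arc arrays. Starburst arrays were the lowest pure arrays, and the third cone array was only just above them; without that array the difference was 1.84 (adjusted p = 3.7e-05). Cones were higher than starburst cells by 1.34 ± 0.31 (limma adjusted p = 0.0044) and Arc cells by 1.37 ± 0.31 (adjusted p = 0.0074), and cones and Arc cells differed by 0.03 ± 0.31 (adjusted p = 0.97). In a fit of only the 6 arrays the first of these calls was lost (adjusted p = 0.0979). Dnajc12 was the only member called in Arc cells against starburst cells.

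Dnajc30, a mitochondrial J protein that acts on complex I, was 4.17, 4.53 and 4.86 on starburst arrays, 3.35, 3.42 and 3.37 on cone arrays and 4.56, 5.02 and 4.91 on Arc arrays. Cone arrays lay below all arrays of both other pure groups and close together. The difference of cones from starburst cells was -1.14 ± 0.18 (limma adjusted p = 1.0e-04) and that of Arc cells from cones 1.45 ± 0.18 (adjusted p = 4.1e-06). Without the third starburst array the first fold was -0.97, under the threshold. Dnajc19, of the mitochondrial import motor, had a smaller difference between cones and starburst cells, -0.62 ± 0.18 (adjusted p = 0.019). Of 9 tested mitochondrial members 8 had lower means in cones than in starburst cells, as did 6783 of all 12441 genes, with a median of -0.62 beside -0.04 over all genes. Of the 9, 1 was called, Dnajc30 (11.1%, beside 8.42% of all genes). Of 5 vesicle and endosome members 0 were called by limma, beside the same 8.42%, and 2 had an unadjusted p under 0.05 in cones against starburst cells. The 5 include Dnajc5 (cysteine string protein; 0.74 ± 0.22 higher in cones, adjusted p = 0.029) and Dnajc6 (auxilin; -0.04 ± 0.17, adjusted p = 0.92).

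Over the 18 mixed arrays, whose levels do not enter the differences of pure groups, a straight line on the share of cone cells gave 7 calls among 64 members (10.9%), beside 5.71% of all tested genes. These are 1 slope upwards (beside 1.27% of all genes) and 6 downwards (beside 4.44%), and the median slope was -0.24 over the members and -0.06 over all genes, given as the log2 change from a share of 0 to 1. The same fit called 0 of 10 cone markers, whose median slope was 2.10, and 6 of 10 starburst markers (median -1.69). An upward slope that was not called, as that of Hspb6, is therefore not shown to be absent. Of the called slopes that of Hspa2 was the steepest, -1.65 ± 0.32 (limma adjusted p = 0.0036), while the larger slopes of Hspb6 and of Dnajb3 (-1.75, adjusted p = 0.28) were not called. It was near the starburst level at 150:50 (3.60, 3.997 and 3.73) and at 125:75 (3.81, 3.22 and 3.996), and low at 100:100 (2.92, 2.98 and 2.73). Dnajc12 was the upward slope, 1.03 ± 0.30 (adjusted p = 0.042). Its call was lost without any single replicate number (adjusted p = 0.372, 0.116 and 0.0836 without 1, 2 or 3).

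The downward slopes included Hspbp1, the nucleotide exchange factor of HSP70 (-1.46 ± 0.30, limma adjusted p = 0.0054), Hspb11 (-1.24 ± 0.31, adjusted p = 0.017), Dnajc19 (-1.23 ± 0.21, adjusted p = 0.0011) and Dnajc30 (-1.004 ± 0.25, adjusted p = 0.019). Hspbp1 went from 6.04, 5.74 and 6.12 at 150:50 to 5.46, 5.37 and 4.16 at 17:183, and Dnajc19 from 5.86, 6.44 and 6.31 to 5.68, 5.60 and 5.55. In both genes the 17:183 arrays lay below all 150:50 arrays. The count of 7 calls was 4, 1 and 6 without replicate number 1, 2 or 3, and without number 2 only Dnajc4 was called. Among the 4 were Dnajc21 and Dnajc8, and among the 6 were Hspb2 and Hspb6, none of which belonged to the 7. The shares of all genes called in these fits are not given here. Lost were Hspa2 without number 2 (adjusted p = 0.117), Hspbp1 without 1 or 2 (0.0639 and 0.0518) and Dnajc19 without 2 (0.0818). Hspb11 was lost without 1 or 2 (0.134 and 0.114) and, by its slope of -0.90, without 3, and Dnajc30 without each (0.146, 0.0887 and 0.108). Dnajc4 had a slope of -1.59 ± 0.34 (adjusted p = 0.0073, and 0.124 without number 1) over the mixtures, with 6.87, 7.05 and 6.54 at 125:75 and 5.30, 5.96 and 5.74 at 43:157. Pure cones, at 6.58, 7.06 and 6.29, did not follow that line, and over the 15 titration arrays the slope was 0.17.

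**Figure D4:**
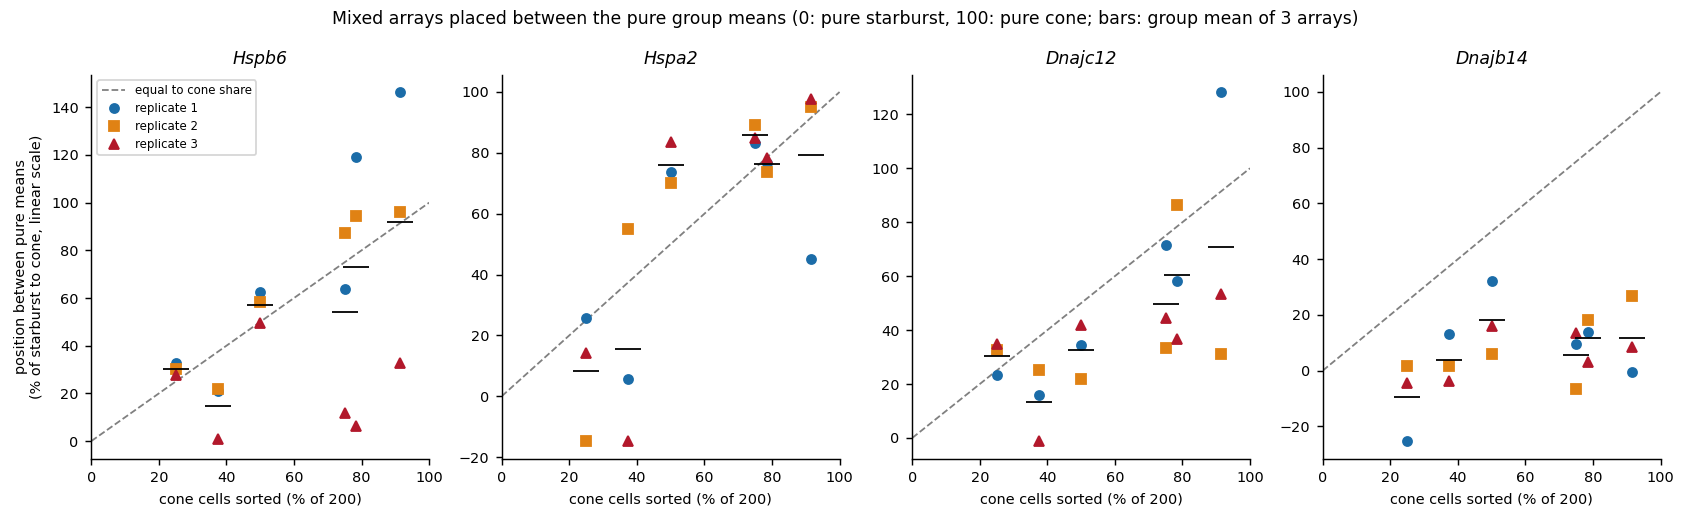
Position of each mixed array between the pure group means on the linear scale (y axis, percent; 0 is pure starburst and 100 pure cone) against the percent of cone cells sorted (x axis) for 4 members; symbols are replicate numbers, short bars are means of 3 arrays and the dashed line is equality. At 50% cones Hspa2 sits at 75.9% and Hspb6 at 56.9%, while Dnajb14 stays between -9.3% and 18.1% on average in every mixture.

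To compare mixtures with their stated shares, levels were taken off the log2 scale and placed between the pure means. Hspb6 lay at 30.2% ± 2.5 (SD, n = 3) of the way at a cone share of 25%, at 14.6% ± 11.9 at 37.5%, at 56.9% ± 6.8 at 50% and at 91.7% ± 56.9 at 91.5%. At 37.5% all 3 arrays (20.8%, 22.0% and 0.87%) lay below those at 25%. The mean log2 level of the 10 cone markers was lower there too, 7.01, 6.93 and 4.90 at 37.5% against 7.61, 7.40 and 7.29 at 25%. The dip was thus not particular to Hspb6, and its cause was not tested. With the third arrays in it, the spread of Hspb6 at 75% or more covered most of the scale. Hspa2 lay at 75.9% ± 6.9 at 50% and at 85.7% ± 3.0 at 75%. Dnajb14 lay at 18.1% ± 13.2 at 50% and at 11.7% ± 13.9 at 91.5%, below the stated share on every array of these groups. Hspa1a lay at -19.9% ± 14.05 at 50% and at 81.3% ± 14.5 at 91.5%. A position depends on the pure arrays as well as on the mixed ones.

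Replicate numbers, which stand for separate pools of mice in the titration, were then compared within groups. By limma's F test 0 of 64 members varied over them at an adjusted p under 0.05, beside 0% of all genes, and 10 of 64 members had an unadjusted p under 0.05 beside 780 of 12441 genes. Hspb1 had the smallest unadjusted p (9.3e-04, adjusted p = 0.58), with means over the 5 titration groups of 4.18, 4.44 and 5.09 for numbers 1, 2 and 3. Hsph1 had means of 4.94, 4.99 and 4.21 (unadjusted p = 0.0040, adjusted p = 0.65). Hspd1 had 5.04, 4.99 and 4.48, and the mitochondrial Dnajc11 had 4.06, 3.97 and 3.42. Dnajc9, a J protein that handles histones, had 6.12, 6.14 and 5.71, and Dnajc4 had 6.24, 6.54 and 5.97. Number 3 had the highest mean for Hspb1 and the lowest for the other 5, and none passed the adjusted threshold. Cone markers were low on the third arrays at 50:150 and of pure cones, and their part in these values was not tested.

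**Figure D5:**
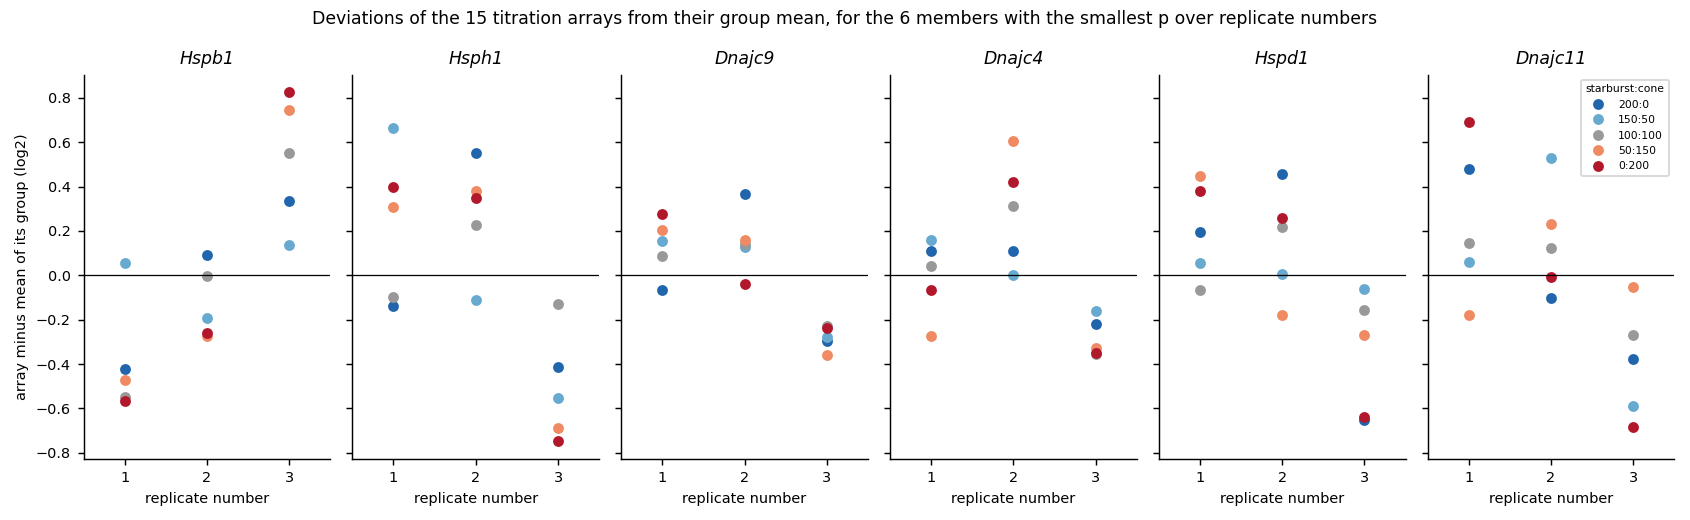
Deviation of each of the 15 titration arrays from the mean of its group (y axis, log2) by replicate number (x axis) for the 6 members with the smallest unadjusted p over replicate numbers; colours are the 5 starburst to cone compositions. Hspb1 points lie highest at number 3 on average (mean level 5.09 against 4.18 at number 1) and Hsph1 points lowest (4.21 against 4.94), with 0 of 64 members past the adjusted threshold.

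Other chaperones and heat shock regulators, 40 tested genes outside or bordering the prefixes, gave 3 calls between cones and starburst cells (7.5%, beside 8.42% of all tested genes). They gave 0 between Arc and starburst cells (limma; 4 at an unadjusted p under 0.05), beside 3.55%, and 5 between Arc cells and cones, 3 higher and 2 lower (12.5%, beside 10.3%). Their median in cones against starburst cells was -0.39 beside -0.04 over all genes, and 31 of 40 had lower means in cones. Aipl1, the photoreceptor cochaperone of phosphodiesterase 6, was higher in cones by 3.18 (8.81, 8.55 and 7.72 on cone arrays against 4.85, 5.68 and 5.005), with no overlap. Bag5 (-1.05) and Stip1 (-1.04), which work on HSP70 and between HSP70 and HSP90, fell below the threshold without the third cone array (-0.86 and -0.88). The Bag5 call was also lost without the second starburst array (-0.91) and the Stip1 call without the first (-0.70).

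In the unfolded protein response list 3 of 17 tested genes were called lower in cones than in starburst cells (17.6%, beside 5.79% of all tested genes) and 0 higher (beside 2.64%). In Arc against starburst cells 1 of 17 was called, lower (5.88%, beside 3.55% of all genes called), and in Arc cells against cones 1 of 17, higher (5.88%, beside 10.3%). Herpud1, of the degradation machinery of the endoplasmic reticulum, was 7.84, 7.53 and 7.84 on starburst arrays, 5.28, 5.32 and 5.07 on cone arrays and 6.54, 6.65 and 6.84 on Arc arrays. The 3 groups did not overlap, and cones differed from starburst cells by -2.51 (limma adjusted p = 7.2e-07) and Arc cells from cones by 1.45 (adjusted p = 4.3e-04). It was also the gene called between Arc and starburst cells (-1.06, limma adjusted p = 0.018), a call lost without Arc array 1 or 2 or starburst array 1 or 3 (-0.99 to -1.04). The transcription factors Ddit3 (-1.09) and Atf4 (-1.04) were called as well, Ddit3 not without the first starburst array (-0.98) and Atf4 not without the third cone array (-0.90). Of 19 immediate early genes, which dissociation can induce, 1 was called between cones and starburst cells, Btg2 (1.60 higher in cones), which is 5.26% beside 8.42% of all tested genes. Nr4a2 was called higher in Arc cells than in starburst cells (1.78), with 4.60, 4.24 and 4.51 on Arc arrays against 2.88, 2.49 and 2.66, and was the 1 of 19 called there (5.26%, beside 3.55%). In Arc cells against cones 3 of 19 were called (15.8%, beside 10.3%), Nr4a2 higher (1.78) and Btg2 (-1.53) and Ier3 (-1.32) lower, Ier3 not without the third array of every group (-1.10). Fos, Egr1 and Atf3 were not called in any comparison.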

How the data were processed

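The 27 mouse gene arrays, 3 for each of 9 groups, each hold RNA of 200 sorted cells. The deposited values are log2 values that the authors made with RMA in the R package oligo (R 2.11.1, build mm9), per the submitters' processing notes. Which arrays were normalized together is not given in the sources used here. Array medians ran from 2.78 to 2.89, and 0 pairs of arrays held the same values. Precision is limited by how many arrays a group has.

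The 19446 probe sets with 1 symbol were used, and those with several (735) or none (2166) of the 22347 were not. Symbols of all 71 members matched RefSeq by Entrez number. The filter for dim genes asked for 3 arrays above 2.83 (the overall median). Genes that passed were tested with limma 3.58.1 in R 4.3.3: 1 mean per group over all 27 arrays (18 residual and 3.42 prior degrees of freedom), two-sided, adjusted by Benjamini-Hochberg over 12441 genes, and called at an adjusted p under 0.05 with a log2 difference of 1 or more either way. A line on cone share was fitted to the 18 mixed arrays (16 residual and 3.23 prior degrees of freedom), and replicate number was tested beside group on 15 titration arrays. Every adjusted p is from limma.

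Members and lists were chosen with earlier results of these data known. Named were Hspa1a and Hspb1, the called members, the 6 with the highest mean, the 6 with the smallest p over replicate numbers, the 4 largest called slopes, and up to 4 called genes of each further list. Other members with values, such as Dnajc3, Dnajc5, Dnajc6, Dnajc19, Dnajb1 and Hspa9, were chosen after seeing them.

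The design text ties a replicate number of the titration to its own mice. Deviations of same-numbered titration arrays from their group means correlated between -0.03 and 0.23 (median 0.02, 3 of 30 pairs over 0.1). Alternatives were a replicate block, other filters and normalizations, the mean of all probe sets, a trended prior, other sets of arrays and leaving out arrays. Leaving out the third array of every group was added after the data were seen.

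The steps were tested on simulated data of 12441 genes. The simulated noise was independent between arrays and genes, and each gene had the same spread in every group. An array shifted over many genes, as the third cone array was in its cone and rod markers, was not simulated. The shares below do not cover such an array or unequal spreads. For cones against starburst cells, 46%, 76%, 88% and 100% of 50 genes changed by a log2 fold of 1, 1.5, 2 and 3 were recovered and 6 unchanged genes were called. A true fold of 1 lies at the threshold for a call, which limits its recovery. For the slope over the 18 mixed arrays 24%, 68%, 86% and 98% were recovered and 8 unchanged genes were called. For replicate numbers 84%, 84%, 96% and 100% were recovered and 7 unchanged genes were called. That fit takes the shift of a replicate number as the same in every titration group. The cone marker mean of the third array instead differed from the others by -1.59 at 50:150 and -1.42 in pure cones. It differed by -0.82 in pure starburst cells, -0.22 at 150:50 and 0.13 at 100:100. Recovery of a shift limited to some groups was not tested, so these shares do not apply to one.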

Additional observations from a re-analysis of the deposited data

How the results depend on the processing

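With replicate number as a block, which pairs arrays of one number, 9, 1, 5 and 7 members were called in cones against starburst cells, Arc against starburst cells, Arc cells against cones and the slope, the same members as without it, and 20 in place of 19 varied over the 9 groups, 18 of them shared. Cones against starburst cells gave between 6 and 11 calls over all alternatives. Shares of all genes called under each alternative are not given here. The counts in this section therefore cannot show whether members changed more than other genes. Arc against starburst cells gave 2 in place of 1 in a fit of only the 6 arrays (both higher) and after centring each array (1 higher, 1 lower), and between 1 and 2 when single arrays were left out. Arc cells against cones gave between 4 and 8 when single arrays were left out. The slope gave 4 calls in place of 7 after another quantile normalization (1 higher, 3 lower), and between 1 and 6 when a replicate number was left out, and members varying over the 9 groups then numbered between 4 and 11. The slope of Dnajc4 turned from -1.59 to 0.17 over the 15 titration arrays, which leave out the 125:75, 43:157 and 17:183 mixtures. Leaving out a replicate number leaves fewer arrays; the causes of the other changes were not tested. Replicate numbers gave 0 calls among members in every alternative run. Without the third array of every group, an alternative chosen after seeing the data, 7, 1 and 7 members were called between pure groups, and in cones against starburst cells Dnajb3 (adjusted p = 0.145) and Dnajc30 (log2 difference -0.97) were not among them. Levels near the filter of 2.83, as of Hspa2 and Dnajb3 in cones, limit what a fold can show, and 3 arrays per group limit the rest.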

Other observations

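Another 2 probe sets carry a DnaJ symbol together with another gene and were left out of the tests. The one shared by Gm4247 and Dnajb6, a J protein that keeps polyglutamine proteins soluble, read 7.69, 7.50 and 7.42 on starburst arrays, 6.48, 6.24 and 6.87 on cone arrays and 7.66, 7.69 and 7.63 on Arc arrays. Every cone array lay below every array of the other pure groups. The mixtures did not fall with the cone share: this probe set read 6.93, 7.10 and 6.71 at 150:50 and 7.51, 7.03 and 7.54 at 17:183. The one shared by Dnajb14 and Pin4 read 10.56, 10.48 and 10.44 on starburst arrays and 10.19, 9.96 and 10.52 on cone arrays, which overlapped, whereas the Dnajb14 probe set used above was higher on all cone arrays. Signal of the genes that share a probe set cannot be told apart.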
